A study of Mus musculus with 13 samples.

Results

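The genes described here are those whose transcript level in mouse back skin fitted a daily wave with its crest 16 to under 20 h after lights on, the middle of the night. Of 16322 genes tested, 51 met the rule (percent called 0.312), and 45 were left as members after 6 predicted genes, RIKEN clones and the like were left out by name. Members were selected on a cosine of 24 h period fitted with linear time to log2(intensity + 16) over 13 pools of skin. They had to have an F p under 0.02, an amplitude (crest minus mean of the wave) of at least 0.12 log2 and a fitted peak from 16 h to under 20 h. Their 24 h values were therefore chosen by the rule, and they are given below as a description that tests nothing.

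Male C57Bl6 mice gave whole back skin on postnatal day 30, when the follicles were in anagen, in which hair grows. All 13 labels give that day, although the ZT hours span 48 h. Mice lived in 12 h of light and 12 h of dark with standard chow at will, and carried no stated mutation or treatment. Collection ran from ZT2 to ZT50 at steps of 4 h, ZT0 being lights on. Each of the 13 time points is 1 array of RNA pooled in equal parts from 3 mice. Differences between single mice cannot be seen, and pooling reduces but does not remove their part in the pool values. Of the pools 6 came from the dark and 7 from the light. The time of day 2 h was collected 3 times and each of the other 5 times of day 2 times, on consecutive days.

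The circadian clock is a loop of transcription in which CLOCK and BMAL1 (gene Arntl) bind E-boxes and switch on their own repressors, the PER and CRY proteins, and the REV-ERB receptors (Nr1d1, Nr1d2). The PAR-bZIP factors such as DBP act through D-boxes, and the REV-ERB and ROR receptors through ROR elements, so that different outputs crest at different hours. Mice are active and feed at night, so transcripts of the dark can follow feeding, activity, body temperature and hormones as well as the clock.

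The hair-shaft and inner root sheath list had 20 of its genes measured, each with a mean intensity of at least 4749. Krt5, a keratin of basal keratinocytes, lay between 13851 and 15797 in all 13 pools. Array medians over all probes ran from 440.0 in ZT2 to 483.2 in ZT46, or 8.83 to 8.96 on the log2 scale. Across the 16322 tested genes, in log2, any 2 pools correlated between 0.978 and 0.996. The summed intensity of 30 skeletal muscle genes ran from 65847 in ZT2 to 137793 in ZT30. That of 18 hepatocyte genes was 49538 in ZT46 and between 9392 and 18499 in the other 12 pools. In whole skin, fewer cells of a type and less RNA per cell cannot be told apart.

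The daily swing of these genes was small. From crest to trough the fitted wave spanned 1.18-fold to 1.49-fold, with a median of 1.26-fold, and the median amplitude was 0.17 log2 where that of all tested genes was 0.06. The crests crowded at the early edge, with 22 members at 16 to 17 h, 15 at 17 to 18 h, 5 at 18 to 19 h and 3 at 19 to 20 h. The median peak was 17.1 h and its median standard error 0.953 h, so that 20 members lay within 1 standard error of the 16 h edge and 3 within 1 of the 20 h edge. All 45 members were highest in a dark pool, 22 on the first night and 23 on the second. The median of the dark pools exceeded that of the light pools in 45 members, by 1.05-fold in Cd3e to 1.37-fold in Timp4. Both counts of 45 follow largely from the rule and are read no further. Their shares over all tested genes were not computed.

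**Figure D1:**
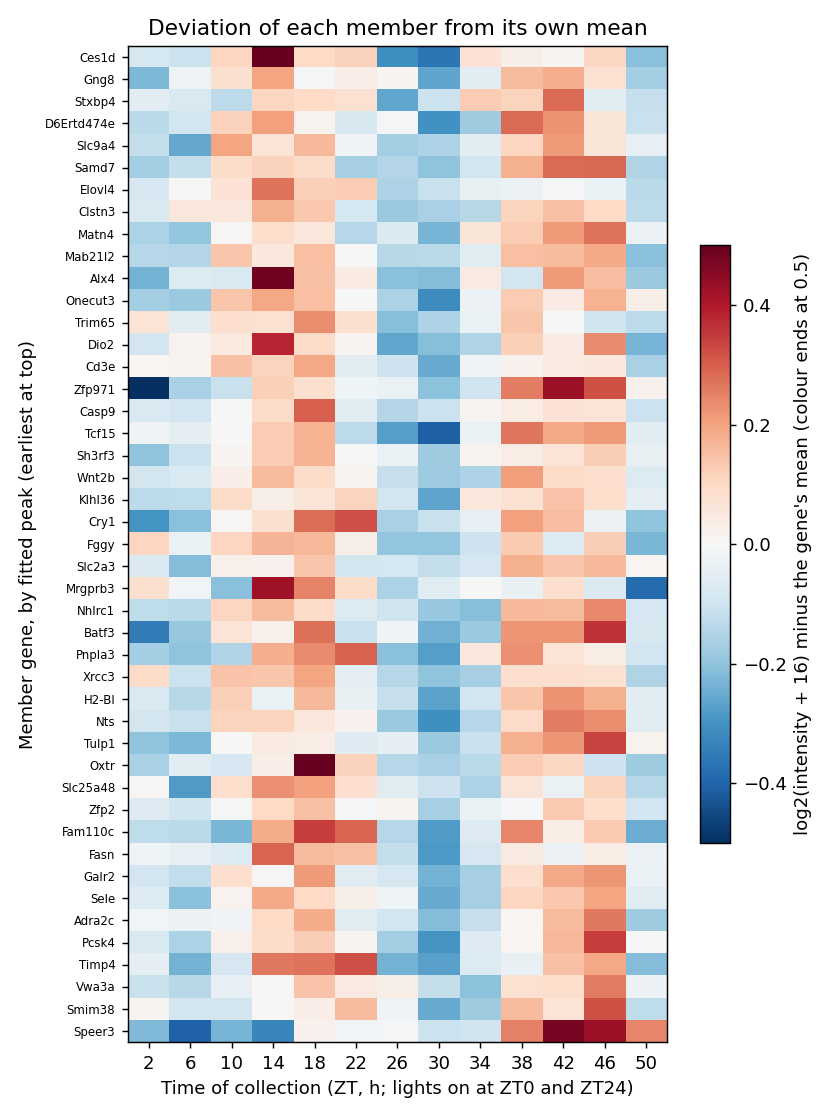
Heat map of the 45 members (rows, earliest fitted peak at the top) across the 13 pools (columns, ZT in h), coloured by log2(intensity + 16) minus the gene's own mean. The dark pools are mostly red in both nights and ZT30 is blue in nearly every row, while Speer3 at the bottom is low at ZT14 and highest at ZT42 and ZT46.

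Single pools weighed on the pattern. ZT30 was the lowest pool for 23 members and ZT26 for 6, whereas ZT46 was the highest for 12, ZT14 for 11, ZT18 for 8 and ZT42 for 7. At ZT18, 44 of 45 members lay above their own mean, and at ZT30 none did. ZT22 was the weak pool of the dark, with 24 members above their mean, against 39 in ZT46 at the same hour of the second night. The members' median deviation was 0.15 log2 at ZT18 and 0.14 at ZT42, and -0.11 and -0.21 at the 6 h pools ZT6 and ZT30. Both 18 h pools exceeded both 6 h pools in 43 members (all tested genes 17.8%). Every dark pool exceeded every light pool in 3 members, Timp4, Fam110c and Sele (all tested genes 0.11%). These shares follow from the selection and are read no further.

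The largest wave belonged to Timp4, an inhibitor of the matrix metalloproteinases that cut collagen and other matrix proteins. Its intensity on the first day was 564 at ZT2, 491 at ZT6, 549 at ZT10, 702 at ZT14, 707 at ZT18 and 732 at ZT22. The second day gave 492 at ZT26, 479 at ZT30, 555 at ZT34, 567 at ZT38, 647 at ZT42 and 668 at ZT46, and ZT50 gave 498. The dark and light pools did not overlap, the nearest being ZT38 at 567 and ZT2 at 564. The amplitude was 0.29 ± 0.04 log2 (SE), a 1.49-fold span, with the peak at 18.3 ± 0.528 h. Timp4 was the only member that passed limma's 24 h test over all genes (adjusted p = 0.0325), in which 23 genes of any peak hour passed (0.141%). That call was lost with median centring, quantile normalization, no filter, no linear time, cycle as a factor or a muscle covariate, and on leaving out ZT2, ZT6, ZT10, ZT14, ZT18, ZT22, ZT26, ZT30, ZT42 or ZT50. The count of 23 became 15 without ZT2, 14 without ZT6 or ZT10 and 13 without ZT18. Among 17 measured genes of the metalloproteinase and inhibitor list, 3 had a fitted peak at 16 to 20 h (17.6%, all tested genes 26.4%). Timp4 alone of that list met the rule at any hour.

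Sele, the E-selectin with which activated vessel walls slow passing leukocytes, separated day from night on both days. Its first-day values were 289, 261 and 308 in the light (ZT2, ZT6, ZT10) and 349, 328 and 311 in the dark (ZT14, ZT18, ZT22). On the second day it read 299, 253 and 269 in the light (ZT26, ZT30, ZT34) and 329, 336 and 351 in the dark (ZT38, ZT42, ZT46), with 291 at ZT50. The highest light pool, 308, lay just below the lowest dark pool, 311, and the amplitude was 0.18 ± 0.03 log2 with a peak at 18.0 h. The summed intensity of the 17 measured blood endothelial genes did not move the same way, at 14339 and 14498 in the 18 h pools and 14652 and 14816 in the 6 h pools. That list as a whole had 2 genes with a fitted peak in the window (11.8%, all tested genes 26.4%).

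Fam110c was the second largest by amplitude, 0.28 ± 0.05 log2, a 1.47-fold span with the peak at 17.9 h. It lay between 199 and 234 in the 7 light pools and between 253 and 316 in the 6 dark pools, with ZT18 highest and ZT30 lowest. The nearest pools of light and dark were ZT34 at 234 and ZT42 at 253.

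Cry1 was the one member from the core clock, a repressor of CLOCK and BMAL1 that acts late in the cycle. Its intensities on the first day climbed from 463 at ZT2 through 494 at ZT6, 576 at ZT10, 607 at ZT14 and 699 at ZT18 to 720.1 at ZT22. On the second day they were 510.4 at ZT26, 529.9 at ZT30, 557 at ZT34, 663 at ZT38, 640.1 at ZT42, 561 at ZT46 and 496 at ZT50. Light and dark overlapped by a single pair, since ZT10 at 576 exceeded ZT46 at 561. The fitted peak was 16.9 ± 0.803 h and the amplitude 0.23 ± 0.05 log2, which limma did not call (adjusted p = 0.237).

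Of the 20 measured core clock genes, 10 met the F p and amplitude limits at some hour. Cry1 and Timeless alone had a fitted peak at 16 to 20 h (10%, all tested genes 26.4%). In order of fitted peak, the genes that met the limits were Nr1d1 at 7.22 h, Nr1d2 at 9.03 h, Dbp at 9.72 h, Per3 at 10.8 h, Tef at 10.9 h, Cry2 at 11.3 h, Hlf at 12.1 h, Per2 at 13.3 h, Cry1 at 16.9 h and Arntl at 22.5 h. Cry1 thus stood after the Per genes and before Arntl, with the smallest wave of these but Cry2 (amplitude 0.21). The others, which did not meet the limits, had fitted peaks at 1.30 h (Nfil3), 5.76 h (Csnk1e), 9.37 h (Per1), 9.64 h (Bhlhe41) and 10.6 h (Ciart). Later came 11.8 h (Bhlhe40), 14.2 h (Rora), 16.4 h (Timeless), 20.8 h (Clock) and 21.0 h (Csnk1d). Their waves had an F p from 0.0234 in Nfil3 to 0.726 in Csnk1d. The standard errors of these hours ran from 1.03 h in Clock to 4.22 h in Csnk1d, and Timeless had 2.63 h.

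**Figure D2:**
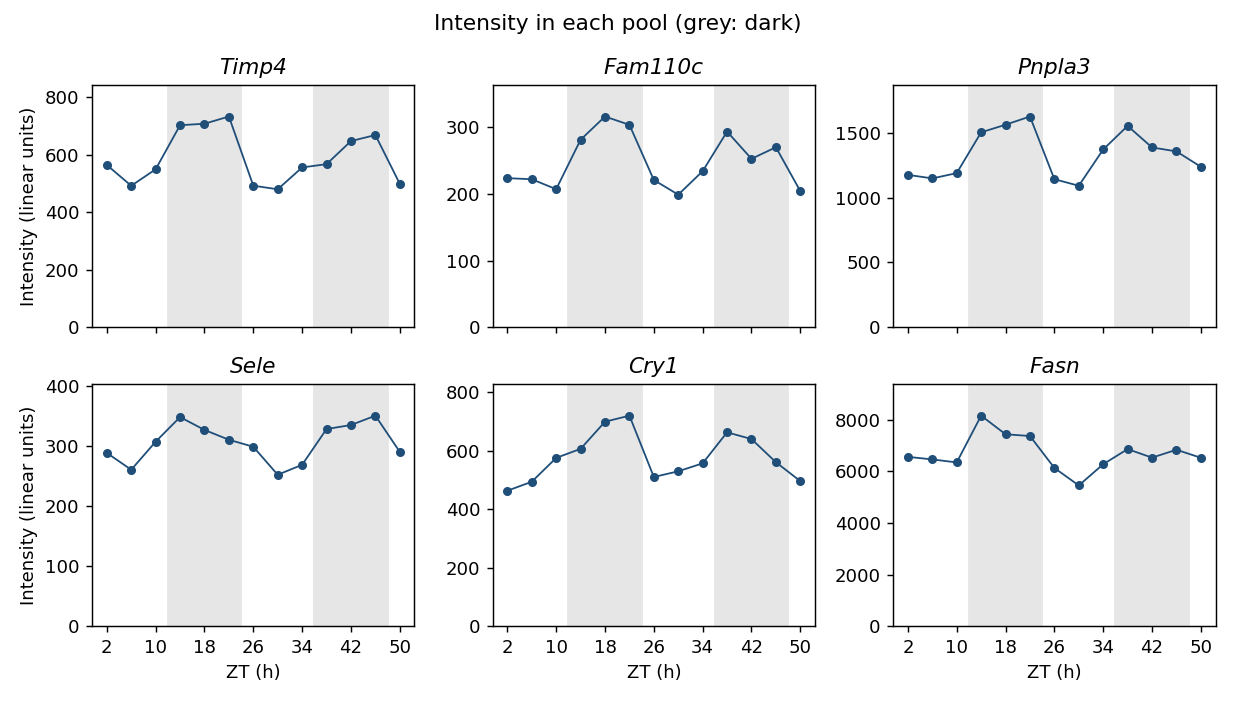
Intensity (linear units, axes from 0) of 6 members in each of the 13 pools against ZT in h, with the dark hours in grey and 1 point per pool of 3 mice. Timp4, Fam110c and Sele do not overlap between grey and white, Cry1 climbs to ZT22 on the first night, and Fasn is highest at ZT14 (8164).

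Promoter stretches were searched for the E-box CACGTG, the D-box TTANGTAA, the cyclic AMP element TGACGTCA and a ROR element, on both strands, from 250 bases before to 50 after the annotated start. RefSeq (GRCm38.p6) held a promoter for 34 members and for 12847 of the tested genes. The E-box was present in 4 members (11.8%, against 9.06% of the tested genes), the D-box in 1, Fggy (2.94% against 1.81%), the cyclic AMP element in 2 (5.88% against 2.65%) and the ROR element in none (0.156% of the tested genes). A match is a run of letters and not a shown binding site. The 4 stretches with an E-box follow, since Cry1 is a known target of CLOCK and BMAL1, and the motif is in capitals.

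Cry1, chr10:85185055-85185169, minus strand: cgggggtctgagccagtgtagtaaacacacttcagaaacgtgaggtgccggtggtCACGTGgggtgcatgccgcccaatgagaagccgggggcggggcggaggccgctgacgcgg

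Oxtr, chr6:112489826-112489923, minus strand: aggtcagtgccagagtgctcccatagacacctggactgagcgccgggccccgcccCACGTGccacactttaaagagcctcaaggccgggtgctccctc

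Batf3, chr1:191098164-191098227, plus strand: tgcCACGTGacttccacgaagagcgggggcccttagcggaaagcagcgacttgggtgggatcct

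Adra2c, chr5:35278359-35278474, plus strand: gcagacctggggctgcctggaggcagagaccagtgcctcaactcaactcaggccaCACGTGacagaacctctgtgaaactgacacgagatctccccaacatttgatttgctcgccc

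The motif starts 60 bases before the annotated start in Cry1, 43 in Oxtr, 247 in Batf3 and 152 in Adra2c. The 2 stretches with a cyclic AMP element, shown because both genes answer to hormones and feeding in other tissues, have it in capitals, 46 bases before the start in Pnpla3 and 95 in Dio2.

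Pnpla3, chr15:84167715-84167815, plus strand: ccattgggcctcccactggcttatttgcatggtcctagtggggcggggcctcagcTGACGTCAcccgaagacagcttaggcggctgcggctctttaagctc

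Dio2, chr12:90739071-90739188, minus strand: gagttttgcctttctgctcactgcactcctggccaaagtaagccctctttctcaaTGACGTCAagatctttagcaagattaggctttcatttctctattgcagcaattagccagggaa

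Besides Cry1, 6 members encode transcription factors. Alx4, a homeobox factor of limb and skull, had an amplitude of 0.22 log2, with ZT14 at 403 and the other pools between 239 and 331. Batf3, a factor of dendritic cells, ran from 252 at ZT2 to 423 at ZT46 (amplitude 0.21). Tcf15, a basic helix-loop-helix factor, ran from 316 at ZT30 to 514 at ZT38 (0.21), and Onecut3, a cut-homeobox factor, from 344 at ZT30 to 495 at ZT14 (0.17). In all 4 the light and dark pools overlapped. The zinc-finger genes Zfp971 (0.22) and Zfp2 (0.12) completed them. The value for Zfp971 is uncertain, since other probes of its cluster are shared by several zinc-finger genes.

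Fat metabolism was represented by 4 members. Pnpla3, or adiponutrin, a lipid-droplet protein of liver and fat, gave 1178, 1151 and 1192 at ZT2, ZT6 and ZT10, then 1508, 1567 and 1629.9 at ZT14, ZT18 and ZT22. Its second-day values were 1145, 1094 and 1375 at ZT26, ZT30 and ZT34, then 1557, 1391 and 1359.8 at ZT38, ZT42 and ZT46, and 1241 at ZT50. ZT34 in the light, at 1375, was above ZT46 in the dark, and the other light pools were below all dark ones. The amplitude was 0.23 ± 0.05 log2 with the peak at 17.3 h.

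Fasn, the enzyme that builds palmitate, had a median of 6351 in the light (5458 to 6566) and 7121 in the dark (6537 to 8164). Its amplitude was 0.16 ± 0.04 log2 at 18.0 h, and the first night, 8164, 7443 and 7374, lay above the second, 6868, 6537 and 6843. Elovl4, which makes the very long acyl chains of skin-barrier ceramides, was the brightest member with a mean of 10502. It ran from 9411 at ZT26 to 12643 at ZT14, with an amplitude of 0.12 log2 at 16.3 h. Ces1d, a carboxylesterase of fat and liver, was 1549.7 at ZT14 and between 822 and 1149.5 elsewhere, with an amplitude of 0.24 log2. It did not meet the rule on leaving out any 1 of ZT2, ZT6, ZT14, ZT22, ZT26, ZT30, ZT38, ZT46 or ZT50.

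Of 27 measured genes of cholesterol and fatty acid synthesis, 13 had a fitted peak at 16 to 20 h (48.1%, all tested genes 26.4%). Each of these genes had a mean intensity of at least 1213, above the tested median of 792.7. Among tested genes above that median, split by level, 15.7% of the dimmer group and 15.95% of the brighter had such a peak. Only Fasn and Elovl4 of that list met the rule at any hour, and the list's median amplitude was 0.04. The summed intensity of the 15 adipocyte genes was 51197 and 54122 in the 18 h pools against 49273 and 53287 in the 6 h pools, overlapping. Dio2, the deiodinase that turns thyroxine into active thyroid hormone, ran from 234 at ZT26 to 375 at ZT14 (amplitude 0.20). Fggy, a carbohydrate kinase of the FGGY family, ran from 2451 at ZT50 to 3232 at ZT14 (0.15), and none of its other 4 probes met the rule.

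Just before the window stood Thrsp (Spot 14), a lipogenic gene, whose fitted peak of 15.998 h fell short of the 16 h edge and whose span of 2.62-fold exceeded that of every member. It read 1665 at ZT14 and 1218 at ZT38, against 374 at ZT26 and 384 at ZT30.

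Receptors and signals made up 7 members. Oxtr, the oxytocin receptor, was 562 at ZT18 and between 309.8 and 387 in the other 12 pools, with an amplitude of 0.25 ± 0.07 log2. Without ZT18 the amplitude was 0.15 and Oxtr still met the rule, and leaving out ZT22, ZT26, ZT34, ZT38 or ZT50 removed it. The adrenergic receptor Adra2c ran from 306 at ZT30 to 432 at ZT46 (amplitude 0.17), and the galanin receptor Galr2 from 234 at ZT30 to 327 at ZT46 (0.16). Mrgprb3, of a receptor family found in sensory neurons and mast cells, was 1626 at ZT14 and 921 at ZT50 (0.20). The summed mast-cell list was also highest at ZT14 (10349) and lowest at ZT50 (7869). It was 9141 and 9256 in the 18 h pools against 8375 and 8708 in the 6 h pools. Light and dark overlapped, since ZT10 at 9387 and ZT34 at 9268 lay above both 18 h pools. The part of mast cells in the wave of Mrgprb3 was not tested. Nts, the neuropeptide neurotensin, was the dimmest member at a mean of 184 (0.18). Gng8, a G protein gamma subunit, was the next to it at 192 (0.16). Wnt2b, a secreted Wnt ligand, was above all light pools in 5 of 6 dark pools (0.15).

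The remaining members of the matrix, cell surface and immune group had amplitudes from 0.13 to 0.17 log2. Matn4, a matrilin of the matrix, peaked in ZT46 at 562, and Pcsk4, a proprotein convertase, in the same pool at 437. Cd3e, a chain of the T cell receptor complex, ran from 629 at ZT30 to 862 at ZT18 (amplitude 0.13), the narrowest light to dark gap of all members. The sum of the 14 measured T and NK cell genes was 8161 and 8253 at 18 h against 7753 and 8481 at 6 h. Of the 14, 4 had a fitted peak in the window (28.6%, all tested genes 26.4%). H2-Bl, a class I histocompatibility gene that shares another probe with H2-Q1, and Clstn3, a calsyntenin, had amplitudes of 0.16 and 0.15.

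Xrcc3, a DNA repair gene, lay between 757 at ZT30 and 1004 at ZT18 (amplitude 0.16). Of 31 measured genes of the DNA repair list, 4 had a fitted peak in the window (12.9%, all tested genes 26.4%, not matched for level). Casp9, the initiator caspase of the mitochondrial death pathway, reached 754 at ZT18 (0.14). The ubiquitin ligases Trim65 (0.14) and Nhlrc1 or malin (0.16) both peaked by 17.1 h. Among 319 solute carriers tested the members were 3 (0.94%, all tested genes 0.312% before any were left out by name). They were Slc25a48 (amplitude 0.17), the sodium and proton exchanger Slc9a4 (0.17) and the glucose transporter Slc2a3 (0.12). Samd7 and Tulp1, known from photoreceptors, had means of 227 and 258, and Mab21l2 one of 203. The last to peak were Vwa3a at 19.4 h, Smim38 at 19.6 h and Speer3 at 19.9 h. D6Ertd474e, Klhl36, Sh3rf3 and Stxbp4 complete the 45. No 2 members lay within 5 protein-coding genes of each other.

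In all, 30 members were on none of the 44 lists and in none of the 63 name families used, and no list had more than 2 members. The members met the thresholds closely. The last inside the F p limit were Batf3 (0.0187), Mrgprb3 (0.0185) and D6Ertd474e (0.018), and the first outside were Tssk6 (0.0204), Cyp2d22 (0.0205) and Camp (0.0209). At the amplitude limit Zfp2, Elovl4 and Slc2a3 were inside at 0.12 and Prdm11, Hacd2 and Gna13 outside, also at 0.12 when rounded. At 16 h Ces1d, Gng8 and Stxbp4 were inside and Thrsp, Sike1 and Mettl7a1 outside. At 20 h Speer3, Smim38 and Vwa3a were inside and Cdkn2d, Nfkbid and Prn, at 20.1, 20.4 and 21.3 h, outside.

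The members were dim. Their median intensity, taken from mean log2 values, was 357.4 where that of all tested genes was 792.7, and 36 of 45 lay below the latter. With the tested genes split into 4 equal groups by level, these groups held 23, 13, 6 and 3 members from the dimmest to the brightest. A fitted peak in the window was more frequent among dim genes than bright ones: 46.9% of the dimmest group, 27.2% of the next, 15.7% of the third and 15.95% of the brightest had a fitted peak at 16 to 20 h, whatever its size. After each array was centred on its median these shares were 38.2%, 18.5%, 6.35% and 5.29%. The list shares given above against 26.4% of all tested genes were not matched for level. The array median over all probes was lowest in ZT2 and highest in ZT46. A wave fitted to it had an amplitude of 0.03 ± 0.01 log2 and a peak at 16.4 ± 1.84 h, and was not established (F p = 0.151, n = 13 pools).

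**Figure D3:**
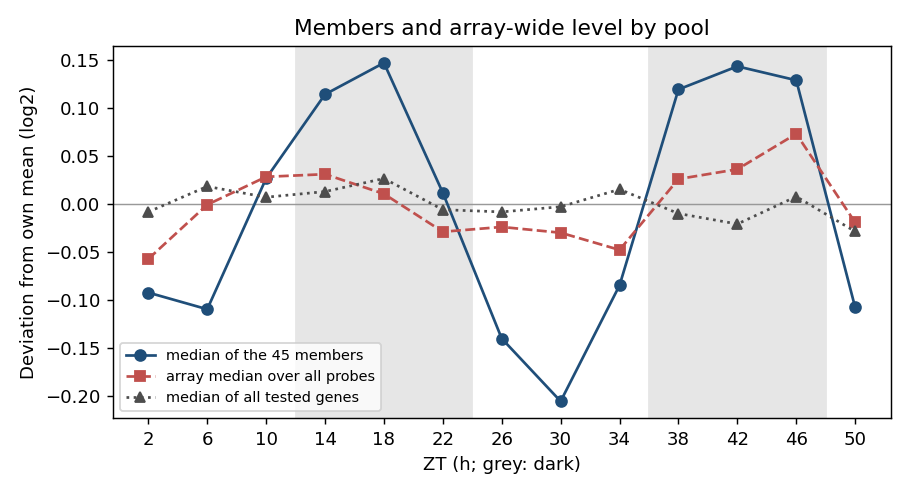
Deviation from the own mean (log2) of the members' median, the array median over all probes and the median of all tested genes, against ZT in h (grey, dark). The members' median swings between -0.21 at ZT30 and 0.15 at ZT18, the array median over a smaller range with its highest point at ZT46.

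With each array centred on its median, 20 genes met the rule, 18 of them among the 45, and Ssu2 and Tssk6 were new. The amplitude was lower in 45 of 45 members, with a median of 0.14 log2. The fitted peak stayed in the window for 40, and over all members it ran from 15.9 to 20.5 h, while 32 kept an amplitude of at least 0.12, 29 an F p under 0.02 and 42 one under 0.05. Those kept were Timp4, Fam110c, Pnpla3, Cry1, Zfp971, Batf3, Dio2, Samd7, Nts, Sele, Pcsk4, Mab21l2, Adra2c, Slc9a4, Nhlrc1, Galr2, H2-Bl and Xrcc3. Oxtr (0.22), Ces1d (0.21), Alx4 (0.19) and Tcf15 (0.18) stayed above the amplitude limit but went past the F p limit, and Fasn (0.14) and Elovl4 (0.09) were lost as well. By level group, from dim to bright, 11, 3, 4 and 0 were kept.

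**Figure D4:**
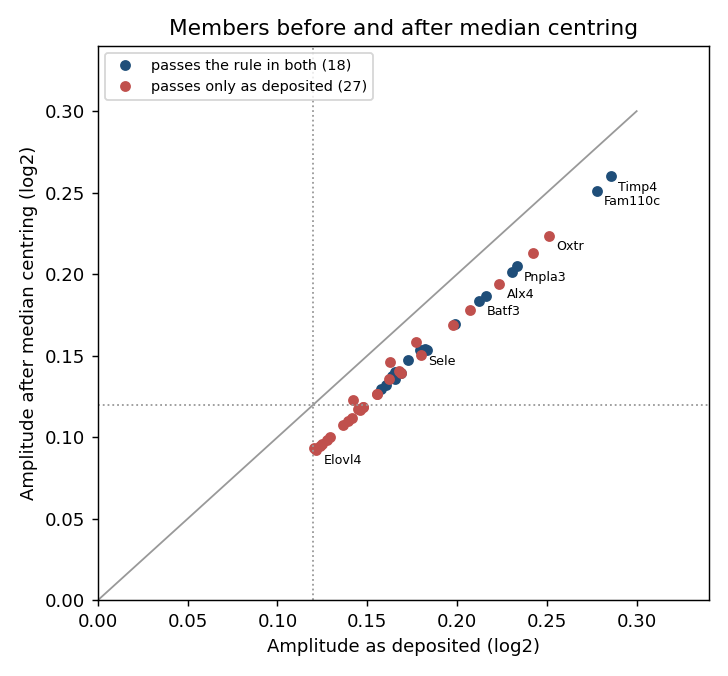
Amplitude of the 45 members after median centring against that as deposited (both log2), with the line of equality in grey and the limit of 0.12 dotted. All points lie below the line, 18 members pass the rule in both (blue) and 27 only as deposited (red), with Timp4 and Fam110c farthest to the right.

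The share kept was lowest of all windows of the fitted peak. Of genes chosen by the same limits at other hours, 36 of 37 were kept at 0 to 4 h (97.3%), 75 of 77 at 4 to 8 h (97.4%), 32 of 43 at 8 to 12 h (74.4%), 51 of 85 at 12 to 16 h (60.0%) and 5 of 8 at 20 to 24 h (62.5%), against 40.0% at 16 to 20 h. Among all tested genes, 26.4% had a fitted peak at 16 to 20 h as deposited and 17.1% after centring. At 4 to 8 h, across the day, the shares were 18.7% and 29.5%.

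**Figure D5:**
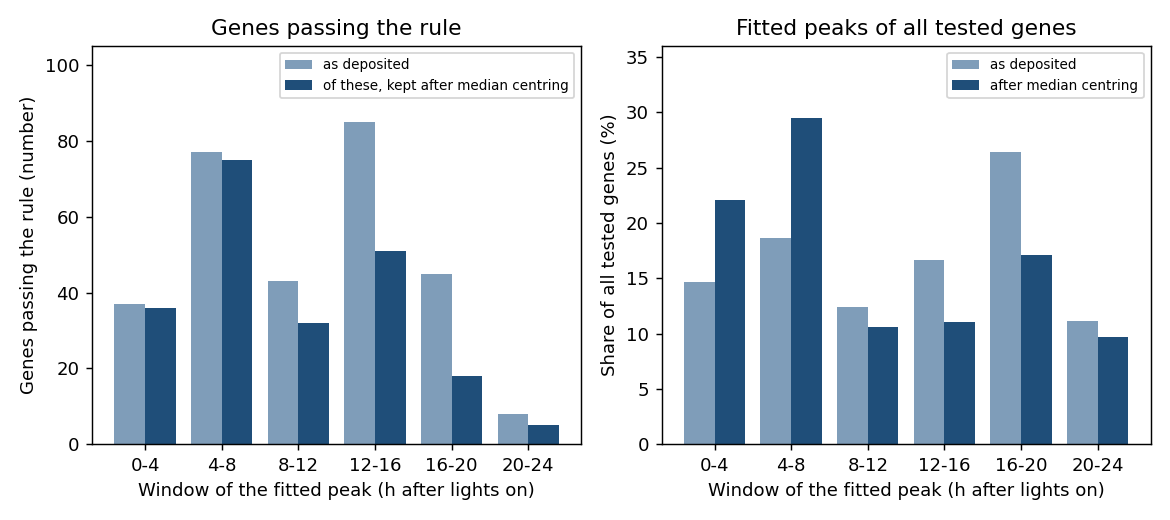
Left, number of genes meeting the F p and amplitude limits in each 4 h window of the fitted peak, as deposited and, of these, after median centring. Right, share (%) of all tested genes with a fitted peak in each window, where 16-20 h holds 26.4% as deposited and 17.1% after centring.

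Membership also turned on single pools. Leaving out 1 pool gave from 23 genes (without ZT26) to 131 (without ZT22) by the rule, with 78 without ZT10 and 66 without ZT18. The fewest members kept were 15, without ZT30, the pool that was lowest for 23 of them and highest in the muscle sum. Without ZT46, the pool with the hepatocyte sum of 49538, 43 genes met the rule and 34 members were kept. With the mean of the muscle list as a covariate 27 genes met the rule and 14 members were kept. Timp4, Fam110c, Pnpla3, Sele, Xrcc3 and Trim65 were kept on leaving out any 1 pool. Timp4 and Pnpla3 were also kept under all 11 changes of scaling, pseudocount, filter, probe choice or covariate, and Fam110c and Sele under the 10 in which their level let them enter.

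The slope of the linear change over the 48 h was no limit of the rule and was tested. Linear time was, however, a term of the fit that chose the members. A slope that takes up spread also lowers the F p of the wave. The members' share with drift is therefore not independent of the selection. Without linear time 57 genes met the rule and 31 members were kept. In limma no gene passed, so that 0 of 45 members and 0% of all genes were called (smallest adjusted p = 0.246, that of Speer3). At an unadjusted p under 0.05 there were 10 members (22.2%), 4 upward and 6 downward, where 8.8% of all genes reached it, 525 upward and 912 downward. Without the wave in the fit 4 members reached it (8.89%, all genes 9.45%). With the muscle covariate 5 did (11.1%, all genes 4.21%), and without ZT2 6 (13.3%, all genes 5.07%).

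The steepest slopes were upward in Speer3, 0.31 ± 0.05 log2 per 24 h, and Zfp971, 0.22 ± 0.06 (limma, adjusted p = 0.326). Downward, Mrgprb3 had -0.18 ± 0.06 (limma, adjusted p = 0.408). Speer3 read 190.3 to 261 in the 6 pools of the first day and 238 to 363 in the 7 later ones, and its probes are shared with other Speer genes in part. These p-values measure the spread between pools.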

How the data were processed

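The authors deposited probe intensity on a linear scale for 13 Affymetrix whole-transcript arrays. Affymetrix Expression Console 1.1.1 and PLIER 2.0 are named, with no role, per the submitters' processing notes. Scaling between arrays and the genome build are not given in the sources used here. Values were taken as log2(intensity + 16), so folds of dim genes are understated. Of 35557 probes, 21789 had 1 gene symbol in the platform annotation and 1621 had several. The highest-mean probe stood for a gene, and genes dimmer on average than the 25th percentile over probes (7.61 log2) were dropped, leaving 16322. Waves and drift were fitted with least squares (numpy 2.4.6) and limma 3.58.1 (R 4.3.3), with Benjamini-Hochberg adjustment over all genes, and the scripts were tested on simulated data. Precision is limited by the number of arrays, 13. The members and lists were chosen with earlier results of these data known, and the role groups after values were seen. Genes named by rule were the 12 largest amplitudes, the 8 smallest F p among the rest, up to 3 members per list, the 3 brightest and 3 dimmest, those next to each threshold, the core clock and any gene called. The other members were named after their values were seen. Alternatives were 2 scalings, pseudocounts of 1 and 64, 2 filters, the mean of probes, other time terms, muscle and adipocyte covariates, other limits of the rule and each pool left out. With cycle as a factor of 3 levels, ZT50 is fitted by its own term.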

Additional observations from a re-analysis of the deposited data

How the results depend on the processing

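The count of genes that met the rule, members or not, was 45. It fell to 20 with median centring (18 of the 45 kept), 27 with the muscle covariate (14 kept) and 18 with a 50th percentile filter. At F p under 0.01 it was 20, and at an amplitude of at least 0.2 it was 10. It was 69 with no filter and 127 at F p under 0.05, and ran from 23 to 131 on leaving out single pools. Genes passing limma's 24 h test were 23, and 15 with no filter or with the muscle covariate, and from 13 to 30 without single pools. Members with an unadjusted drift p under 0.05 were 10, and 5 with the muscle covariate, 4 without the wave terms and from 6 to 13 without single pools. The other alternatives stayed within 1.5 times of these counts, though quantile normalization, with 39 genes, kept 22 of the 45. The causes were not tested, save that a stricter filter or limit removes genes by construction. Pools of the same hour on the 2 days could be matched by their labels, but no analysis paired by hour was run here. Cycle as a factor, which blocks pools by day, gave 47 genes by the rule and kept 27 of the 45. With dim signals near the filter at an intensity of 179.9, where the residual SD is larger, small waves are least certain.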
